A study of Mus musculus with 15 samples.

Results

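The CHD (chromodomain helicase DNA-binding) remodellers are 9 mouse genes, Chd1 to Chd9, and they were taken by symbol from the 26145 genes listed for every library. Each symbol occurred once in the gene list. The rule uses symbols alone, but the family was picked with earlier results of these data known. The study profiled single cells of the adult (P60) and juvenile (P21) mouse prefrontal cortex with a droplet platform that counts unique molecular identifiers (UMIs). All mice were C57BL/6N males. The 12 P60 libraries came from animals of 8 to 10 weeks that self-administered cocaine or saline intravenously, with 2 cocaine and 2 saline libraries at each of 3 points: the end of the maintenance phase, 48 h of withdrawal and 15 days of withdrawal. The 3 P21 libraries came from animals of 3 weeks, for which the labels give no self-administration. Each library pooled 2 mice, and fewer P21 mice are described than 3 such pools need, so P21 libraries may share animals and their spread may be partly technical.

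CHD proteins are ATP-driven motors that slide, evict or space nucleosomes, and all carry paired chromodomains in front of a helicase-like ATPase. Chd1 and Chd2 act at transcribed genes and help to place the histone variant H3.3. Chd3, Chd4 and Chd5 are alternative ATPases of NuRD, a complex that joins remodelling to histone deacetylation, and in the developing cortex they are known for distinct roles in progenitors and migrating neurons. Chd6, Chd7, Chd8 and Chd9 form the third group. Chd7 is the CHARGE syndrome gene and works in the oligodendrocyte lineage, and Chd8 and Chd2 are known for their links to autism and epilepsy.

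The stretch of coding sequence around the DEAH box of the ATPase is shown because it is a part that all members share. Each run has 36 bases of the longest GENCODE M1 coding transcript (build NCBIM37, mm9), 5′ to 3′ on the coding strand, with the 12 bases that encode the box in capitals. The box was found once in each of the 9 transcripts.
Chd1: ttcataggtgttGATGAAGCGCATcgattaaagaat
Chd2: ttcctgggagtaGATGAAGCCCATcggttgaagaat
Chd3: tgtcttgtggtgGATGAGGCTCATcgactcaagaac
Chd4: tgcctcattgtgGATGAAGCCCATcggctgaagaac
Chd5: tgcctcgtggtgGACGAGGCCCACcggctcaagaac
Chd6: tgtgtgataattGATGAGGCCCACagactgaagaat
Chd7: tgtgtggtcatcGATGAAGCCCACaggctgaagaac
Chd8: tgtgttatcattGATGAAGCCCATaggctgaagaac
Chd9: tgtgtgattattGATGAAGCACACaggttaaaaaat
The Chd3 run lies in exon 16 of 40 at chr11:69170452-69170487 on the minus strand, and the Chd6 run in exon 13 of 37 at chr2:160843804-160843839 on the minus strand. Chd3 and Chd5 shared 30 of the 36 bases, as did Chd4 and Chd5, Chd6 and Chd7, and Chd6 and Chd8. Pairs within the 3 groups shared 28 (Chd3 and Chd4, for example) to 32 bases (Chd7 and Chd8), and Chd1 and Chd2 shared 29. Pairs from different groups shared 21 (Chd3 and Chd9, for example) to 29 (Chd4 and Chd8), so the 2 ranges overlapped and this stretch alone does not separate the groups. No 50-base word from the last 500 bases of any member's transcript occurred in another gene's coding transcript. A lincRNA on the opposite strand (A030009H04Rik) lay within 1000 bases of the 3′ end of Chd3, Kcnab2 on the opposite strand lay there for Chd5, and Supt16h on the same strand and the lincRNA Gm16682 for Chd8, and how the counting treated strand is not given in the sources used here.

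The deposited clusters placed 35360 cells in 8 types, and the 15 libraries held 1055 to 4439 cells and 8375172 to 42892922 UMIs each. Median UMIs per cell ran from 3426 to 11335 over libraries. No pair of libraries shared more than 27 cell barcodes. Levels are given as CPM, the UMIs of a gene scaled to 1e+06 UMIs of a type in a library, without mitochondrial and ribosomal protein genes, and a type entered with at least 10 cells. They are compared between cell types for 1 gene at a time, never between genes. The tissue tag of the labels names the nucleus accumbens whereas titles and source name the prefrontal cortex. In saline P60 libraries the 4 accumbens markers (Drd1, Drd2, Adora2a and Ppp1r1b) summed to 7.42 to 25.6 CPM in inhibitory neurons and the 3 excitatory markers to 1118 to 1397 CPM in excitatory neurons. These values describe cells already classed as such and do not settle which tissue was dissected.

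At P60, 3 patterns stood out across the 8 types. By mean level, Chd3 and Chd5 were highest in neurons, and Chd7 was highest in the oligodendrocyte lineage and lowest in neurons. Chd4 was higher in every non-neuronal type than in neurons. Not all neighbours in these orders differed, as given below. Of 252 pairs (9 genes, 28 pairs of types) 161 differed, by an exact paired sign-flip permutation test over libraries with Benjamini-Hochberg adjustment. Chd7 differed in 25 of 28 pairs and Chd8 in 9. Types were named by the study's authors from these same cells.

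**Figure D1:**
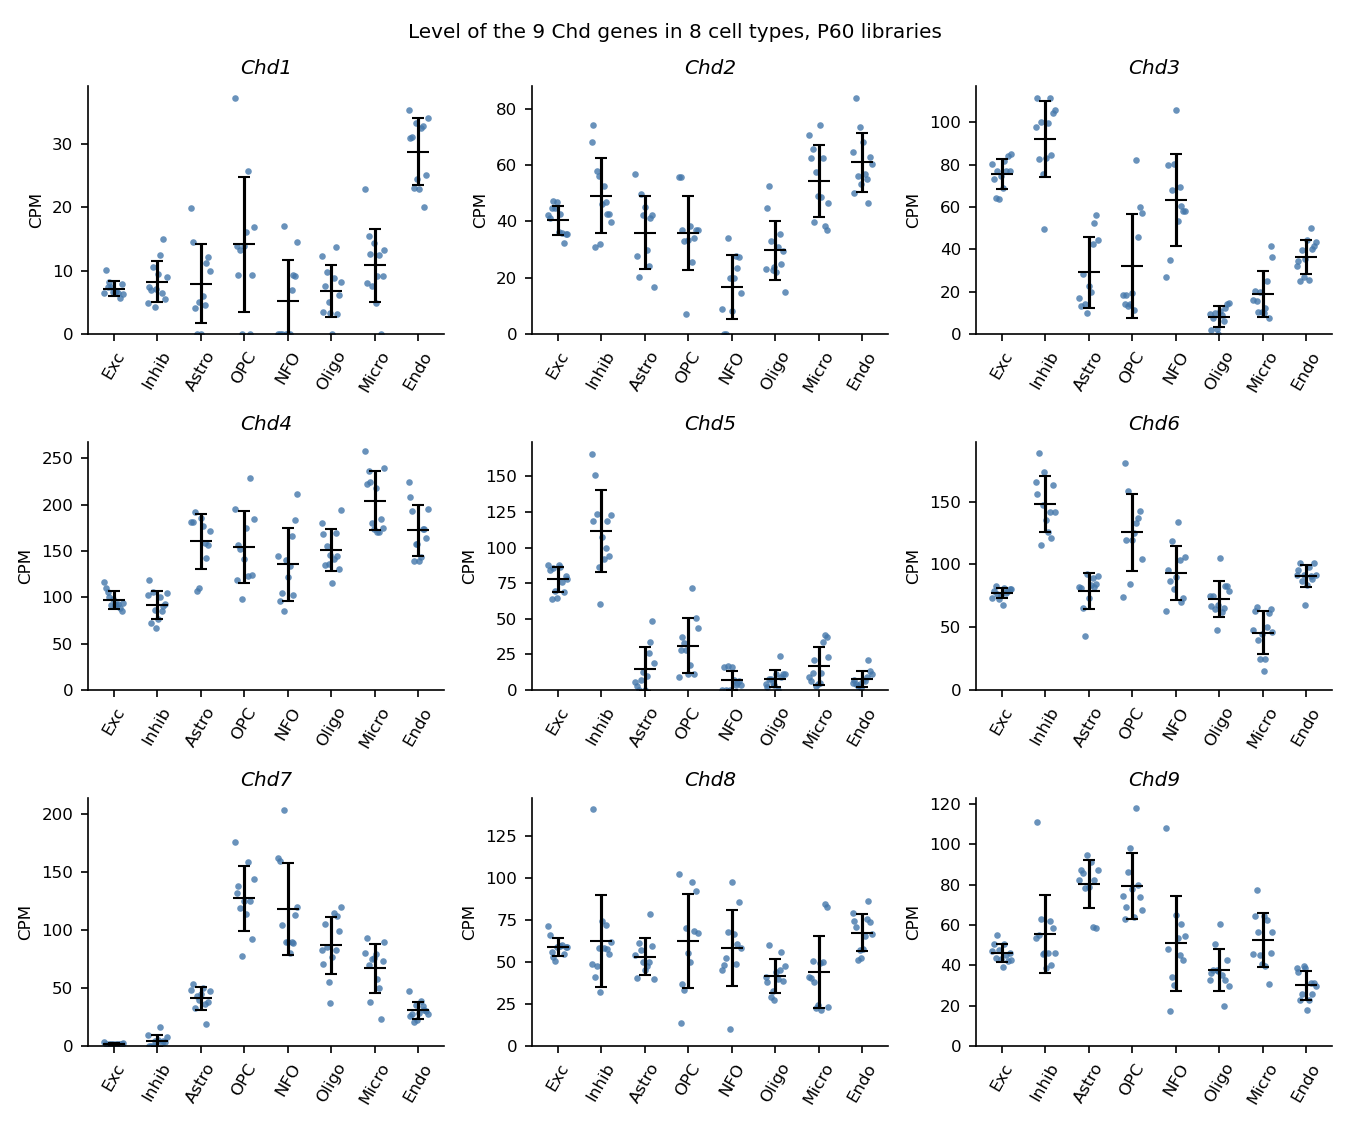
Level in CPM (y axis, linear, from 0) of each Chd gene in 8 cell types (x axis: Exc, excitatory; Inhib, inhibitory; Astro, astrocytes; OPC, oligodendrocyte precursors; NFO, newly formed oligodendrocytes; Oligo, mature oligodendrocytes; Micro, microglia; Endo, endothelial). Points are the 11 or 12 P60 libraries with at least 10 cells, and bars the mean ± SD. Chd5 stands above 60 CPM in every library of both neuron types, and Chd7 stays at or under 16.3 CPM there.

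Chd1, which binds elongating transcription units, was highest in endothelial cells at 28.7 ± 5.28 CPM (SD, n = 12). The other 7 types lay between 5.18 and 14.1 CPM, and no neighbours among them differed. Chd2, its closest relative, was also highest in endothelial cells (61.0 ± 10.5 CPM), with microglia next at 54.4 ± 12.9 CPM (exact permutation test, adjusted p = 0.172), and newly formed oligodendrocytes lowest at 16.8 ± 11.4 CPM (n = 11).

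Chd3 stood at 92.1 ± 18.0 CPM in inhibitory neurons and at 75.6 ± 7.07 CPM in excitatory neurons (SD, n = 12 each), which differed (exact permutation test, adjusted p = 0.0166). It reached 63.2 ± 21.7 CPM in newly formed oligodendrocytes (n = 11), which did not differ from excitatory neurons beyond their spread (exact permutation test, adjusted p = 0.236). Mature oligodendrocytes held only 8.19 ± 4.85 CPM of it, the lowest of all types. Excitatory neurons exceeded mature oligodendrocytes by 3.24 on the log2 scale, and in 12 of 12 libraries. Chd4, the widely used NuRD ATPase, was highest in microglia at 204.4 ± 31.7 CPM. Excitatory neurons held 97.1 ± 9.34 CPM of it, and inhibitory neurons at 92.0 ± 15.3 CPM did not differ from them beyond their spread (adjusted p = 0.395, exact permutation test). Chd5, the neuronal NuRD ATPase, stood at 112 ± 28.6 CPM in inhibitory and 77.6 ± 9.05 CPM in excitatory neurons. It was at 31.1 ± 19.2 CPM in precursors and between 6.71 and 17.0 CPM in the other 5 types. Each of those 5 types held 10 to 136 Chd5 UMIs over its libraries.

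Chd6 was highest in inhibitory neurons (148 ± 22.2 CPM) and oligodendrocyte precursors (126 ± 30.9 CPM, n = 11), which did not differ beyond their spread (exact permutation test, adjusted p = 0.251), and lowest in microglia (45.7 ± 17.0 CPM). Inhibitory exceeded excitatory neurons (77.2 ± 4.26 CPM) in 12 of 12 libraries, by 0.94 on the log2 scale. Chd7 ranked from precursors (128 ± 28.0 CPM) and newly formed oligodendrocytes (118 ± 40.0 CPM) to mature oligodendrocytes (86.9 ± 24.9 CPM), microglia (67.04 CPM, from 23.1 to 92.95 over libraries), astrocytes (41.2 ± 9.77 CPM) and endothelial cells (30.8 ± 7.45 CPM). Precursors and newly formed oligodendrocytes did not differ in Chd7 beyond their spread (exact permutation test, adjusted p = 0.475). The same held for newly formed against mature oligodendrocytes (exact permutation test, adjusted p = 0.0750) and for mature oligodendrocytes against microglia (adjusted p = 0.184). In inhibitory neurons Chd7 was at 4.42 ± 4.94 CPM and in excitatory neurons at 1.60 ± 0.62 CPM. Excitatory neurons lay below precursors by 6.24 on the log2 scale, in 11 of 11 libraries. Chd8 varied least, from 41.6 ± 9.90 CPM in mature oligodendrocytes to 67.5 ± 11.1 CPM in endothelial cells, and no neighbours in that order differed. Chd9 was highest in astrocytes (80.6 ± 11.9 CPM, n = 11) and precursors (79.3 ± 16.5 CPM, n = 11) and lowest in endothelial cells (30.1 ± 7.20 CPM).

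Within the 26 excitatory clusters, Chd3 had the widest range of the members at 10 CPM or more, from 35.6 CPM in Exc_11 to 146 CPM in Exc_20 (all P60 cells of a cluster summed). The leading genes of Exc_20 against the other excitatory clusters were Syt6 and Foxp2, and those of Exc_11 were Ctxn3 and Adam33. Chd5 ran from 43.4 CPM in Exc_2 to 115 CPM in Exc_21, Chd6 from 65.3 CPM in Exc_15 to 141 CPM in Exc_21, and Chd4 from 63.8 CPM in Exc_22 to 139 CPM in Exc_3, the cluster led by Pvrl3 and Cux2. The ranges of Chd2, Chd8 and Chd9 spanned less than 2-fold, with 1.69, 1.72 and 1.84 between the highest and the lowest cluster. Among 7 inhibitory clusters with at least 50 cells, Chd7 was at 19.8 CPM in Inhib_4, on 8 UMIs in 74 cells, and listed at 0 in Inhib_5 and Inhib_10.

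Over the 82 fine clusters of all types with at least 50 P60 cells, the gene most like Chd5 was Aak1 (Pearson r = 0.938 across clusters of log2(CPM + 1)), followed by Zwint and Snhg11. Cd9, Tns3 and Hadha tracked Chd7, with r of 0.948, 0.938 and 0.935. Psma1 (r = 0.870), Pkm2 and Dlgap4 were nearest to Chd3, and Smarcc2 (r = 0.780), a subunit of the BAF remodeller, Ate1 and Upf3b to Chd6. For Chd1 they were Nes (0.832), Plekhg2 and Clec14a, for Chd2 Srgap2 (0.756), Tm6sf1 and Clip1, and for Chd4 Krcc1 (0.836), Eef1d and Tcn2. Irf2bp1 (0.788), Bag5 and Wdr48 were nearest to Chd8, and Snx14 (0.794), Ldhb and 2010107H07Rik to Chd9. Clusters of 1 type share libraries and depth, so these coefficients describe the clusters and carry no test.

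The comparison of age asked how the members' levels differed between the juvenile and the adult cortex, with the 6 saline P60 libraries against the 3 P21 libraries. Chd3 fell in excitatory neurons to 0.547 of its juvenile level, Chd6 rose in both excitatory and inhibitory neurons, and Chd7 was lower at P60 in endothelial cells and, at a very low level, in excitatory neurons. A gene was called at an edgeR quasi-likelihood adjusted p under 0.05 with a change over 1.5-fold. By this rule 5 of 51 member and type pairs tested were called, a count that ran from 2 (without P21 library 3) to 6 over left-out libraries and was 2 with P21 libraries 2 and 3 summed. Among all genes, 19.3% were called in excitatory neurons (3 of 9 members tested), 14% in inhibitory neurons (1 of 7) and 12.6% in endothelial cells (1 of 9). No member was called in astrocytes, newly formed oligodendrocytes, mature oligodendrocytes or microglia, where 1.1%, 1.94%, 17.8% and 0.726% of all genes were. An unadjusted p under 0.05 was found for 15 of the 51 pairs. The share of all genes at that cutoff was not computed, so unadjusted counts here and below are not read as results about the members. Nor was the share of all genes whose ages do not overlap, so non-overlap here and below only describes the values. Precursors were not tested because only 1 P21 library held 10 or more. The mitochondrial share of UMIs was 3.50% to 3.84% in the P21 and 2.54% to 3.23% in the saline P60 libraries, with no overlap, and its part in the age differences was not tested. Age cannot be told apart from library batch or from the surgery and self-administration of the P60 mice.

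In excitatory neurons the 3 P21 libraries held Chd3 at 130, 133 and 150 CPM (1704 to 4032 UMIs each). The 6 saline P60 libraries ran from 63.5 through a median of 71.2 to 84.9 CPM. The groups were far apart, and all 6 cocaine libraries, at 74.6 to 84.2 CPM, also lay below every P21 library. The log2 fold change was -0.87 ± 0.09 (SE), an edgeR adjusted p of 2.33e-05. With 14 clusters weighted equally the levels were 132 ± 18.5 CPM at P21 and 74.8 ± 10.4 CPM at P60 (SD, n = 3 and 6). Thinned to 2000 UMIs, 23.2% of 5920 P21 excitatory cells held a Chd3 UMI against 14.05% of 14443 P60 cells, saline and cocaine together. The unthinned shares were 64.8% and 57.9% at median depths of 8373 and 12456 UMIs. In mature oligodendrocytes, where Chd3 was lowest, the thinned shares over the same libraries were 2.38% and 1.52%.

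In inhibitory neurons Chd3 stood at 90.6, 93.3 and 122 CPM at P21 and from 75.7 through 93.5 to 111 CPM at P60. These groups overlapped, and the log2 change was -0.14 ± 0.15 (edgeR adjusted p = 0.548, 95% interval of the fold 0.727 to 1.13). The difference between the changes in excitatory and inhibitory neurons, fitted within libraries, was -0.70 ± 0.12 on the log2 scale (edgeR adjusted p = 4.71e-05), in a comparison where 7.21% of genes were called. Against newly formed oligodendrocytes, where the log2 change was 0.26 ± 0.31 and did not pass, the difference was -1.01 ± 0.30 (edgeR adjusted p = 0.0332). The latter call was lost in 8 of 11 alternatives. The 5 comparisons of excitatory neurons with non-neuronal types called 4.01% of gene tests, and no other member was called in any. In microglia Chd3 stood at 47.5, 55.6 and 78.8 CPM at P21, on 25 UMIs in all, and from 9.89 to 41.5 CPM at P60. Those groups did not overlap, and the log2 change of -1.18 ± 0.48 did not pass adjustment.

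Chd6 moved the other way. In excitatory neurons it was at 49.6, 50.02 and 58.9 CPM at P21 and ran from 67.9 through 79.7 to 83.1 CPM at P60, with no overlap (log2 change 0.61 ± 0.09, edgeR adjusted p = 0.000327). In 4 of 18 alternatives, P21 libraries 2 and 3 summed among them, the change fell under 1.5-fold and the call was lost. In inhibitory neurons the P21 libraries held 78.2, 82.1 and 96.9 CPM and the P60 libraries 135 to 189 CPM with a median of 151, again with no overlap (0.83 ± 0.14, adjusted p = 0.000762). The rise in excitatory neurons minus that in inhibitory neurons was -0.20 ± 0.12, which did not pass (edgeR adjusted p = 0.317), and minus that in endothelial cells 0.38 ± 0.12, which passed adjustment (0.0409) but not 1.5-fold. The Chd6 estimate was above 0 in all 7 types tested. These types come from the same libraries, and the share of all genes with the same sign in every type was not computed. In endothelial cells the ages did not overlap, with 66.1 to 73.9 CPM at P21 and 84.0 to 101 CPM at P60, but the log2 change of 0.27 ± 0.11 was neither past adjustment nor over 1.5-fold. The thinned share of excitatory cells with a Chd6 UMI was 9.78% at P21 and 13.9% at P60, saline and cocaine together.

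**Figure D2:**
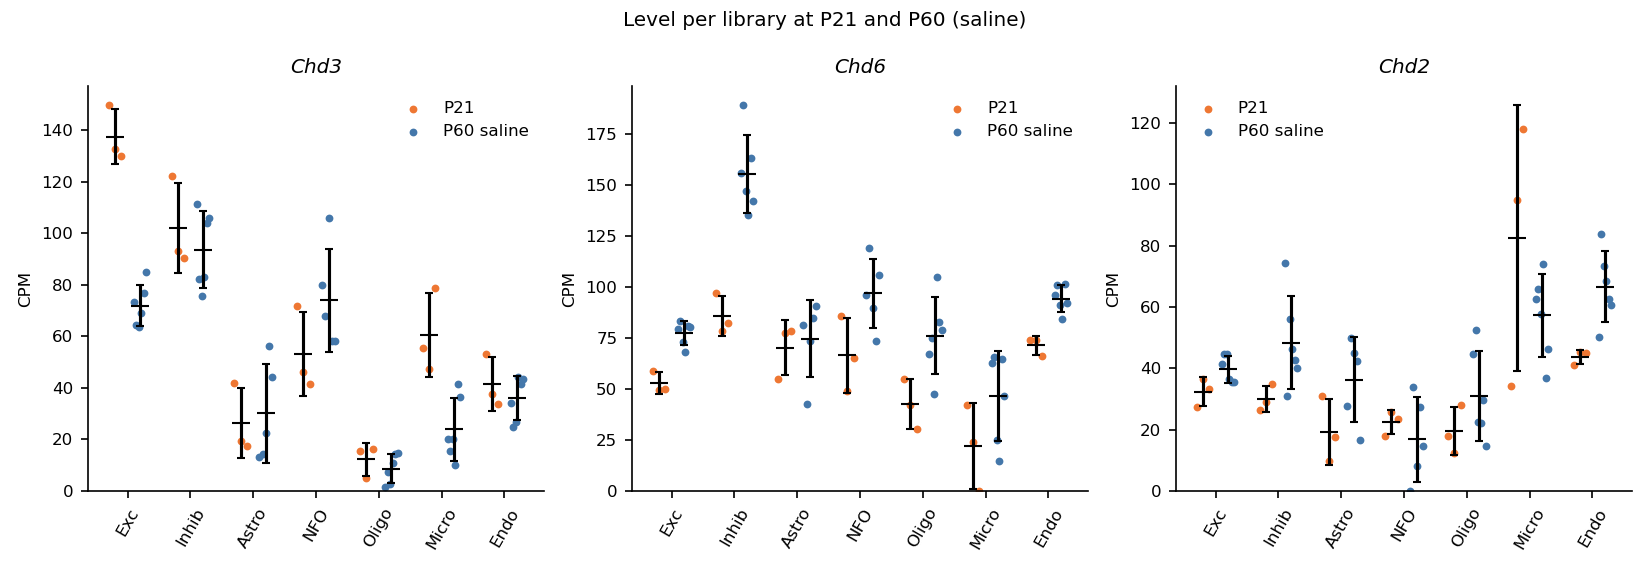
Level in CPM (y axis, from 0) of Chd3, Chd6 and Chd2 in 7 cell types (x axis, abbreviated as in the plot of levels by type) at P21 (orange, 3 libraries) and in saline P60 libraries (blue, 5 or 6). Points are libraries and bars the mean ± SD. Chd3 in excitatory neurons drops from 130 or more to at most 84.9 CPM, while its inhibitory values overlap, and Chd6 is higher at P60 in both neuron types.

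Chd7 in excitatory neurons was at 2.25, 2.26 and 3.09 CPM at P21 (143 UMIs) and from 0.483 through 1.41 to 2.12 CPM at P60 (133 UMIs). The log2 change was -0.80 ± 0.30 (edgeR adjusted p = 0.0463), and the call was lost in 11 of 18 alternatives. Over these the estimate ran from -0.99 to -0.16, with adjusted p up to 0.723. The 4 mature oligodendrocyte markers summed to 160 to 237 CPM in P21 and 38.9 to 93.9 CPM in saline P60 excitatory neurons, with all 4 detected in every library, and the 4 microglial markers to 18.0 to 87.5 and 7.13 to 21.999 CPM. These lists come from types where Chd7 is high, and their part in the Chd7 and Chd3 values was not tested. In endothelial cells Chd7 was at 34.0, 36.6 and 52.3 CPM at P21 and from 26.3 to 35.1 CPM at P60. The groups overlapped, and the log2 change was -0.61 ± 0.17 (adjusted p = 0.0201), lost in 5 of 18 alternatives.

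Chd2 had an edgeR adjusted p under 0.05 with a change under 1.5-fold in excitatory neurons (0.35 ± 0.13, adjusted p = 0.0395), inhibitory neurons (0.58 ± 0.20, adjusted p = 0.0442) and endothelial cells (0.47 ± 0.15, adjusted p = 0.0458). The inhibitory change of Chd2 was 1.499-fold, just under the threshold, and was called in 7 of 18 alternatives. Its endothelial values did not overlap, with 41.2 to 45.3 CPM at P21 and 50.2 to 84.0 CPM at P60. Chd9 did so in excitatory neurons (0.33 ± 0.09, adjusted p = 0.0117), where it stood at 36.4, 36.5 and 38.9 CPM at P21 and from 39.2 to 50.6 CPM at P60. In inhibitory neurons Chd9 lay at 32.4 to 38.7 CPM at P21 and 38.8 to 111 CPM at P60, and in astrocytes Chd8 lay at 26.2 to 29.1 and 39.8 to 59.3 CPM. Neither pair of groups overlapped, and neither change passed adjustment (0.51 ± 0.21 and 0.72 ± 0.33, edgeR adjusted p = 0.0902 and 0.346). The Chd9 groups nearly met, at 38.7 and 38.8 CPM. Its 111 CPM was library 2 alone, on 15 UMIs, and the other saline P60 libraries reached at most 58.5 CPM. Chd1, Chd4, Chd5 and Chd8 did not pass adjustment in any type. For excitatory neurons their 95% intervals of the fold were 0.77 to 1.17 for Chd1, 0.904 to 1.31 for Chd4, 0.87 to 1.34 for Chd5 and 0.943 to 1.21 for Chd8.

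Cluster by cluster, the fall of Chd3 was called in 17 of the 25 excitatory clusters where it was tested, and its estimate was below 0 in all 25. The clusters are parts of the same libraries, so their agreement is not independent. The share of all genes with the same sign in every cluster was not computed. With at least 30 cells a library the fall of Chd3 was called in 10 of 18 clusters, with DESeq2 in 14 of 25, and in 13 to 18 over left-out libraries. Over all genes and excitatory clusters 6.7% of tests were called lower, and 134 of 9544 genes (1.40%) were called lower in as many clusters as Chd3 or more. The 9544 genes were those tested in at least 1 excitatory cluster, and genes tested in fewer than 17 could not reach that count. The largest falls were in Exc_1 (-1.61 ± 0.25), led by Penk, in Exc_10 (-1.52 ± 0.23), led by Cartpt, and in Exc_24 (-1.49 ± 0.19), led by Lgals1. In Exc_1 the level went from 140 ± 27.8 CPM (SD, n = 3) to 44.4 ± 7.71 CPM (n = 5). The smallest fall was in Exc_20, from 164 ± 18.3 CPM (n = 3) to 142 ± 48.6 CPM (n = 4), which is the cluster with the highest adult level. Exc_26, led by Pou3f1, Exc_3 and Exc_18 also gave falls under 0.35 that did not pass. Exc_11, where Chd3 was not tested, held 82.1 ± 48.2 CPM on 19 UMIs at P21 (n = 2) and 28.5 ± 7.61 CPM at P60 (n = 6).

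The rise of Chd6 was called in 9 of 26 excitatory clusters and its estimate was above 0 in all 26, clusters that again share libraries. Over all genes and these clusters 4.56% of tests were called higher, and 239 of 9544 genes (2.50%) were called higher in as many clusters or more. Here too, genes tested in fewer than 9 clusters could not reach that count. With at least 30 cells Chd6 was called in 4 of 18 clusters, with DESeq2 in 4 of 26, without P21 library 3 in 3, without P21 library 2 in 4, and in at most 10 over left-out libraries. Exc_14, led by Figf, gave the largest rise (1.03 ± 0.19), from 37.1 ± 9.21 CPM (n = 3) to 71.0 ± 8.65 CPM (n = 6). Exc_20 gave the smallest estimate (0.05 ± 0.25). Outside these genes, Chd2 was called higher in Exc_21 (0.88 ± 0.25), Chd9 higher in Exc_22 (0.79 ± 0.26) and Chd5 lower in Exc_1 (-0.90 ± 0.28). Chd2 had no call without P21 library 1. Chd9 had none with DESeq2, with at least 30 cells, or without P21 library 2, P21 library 3 or library 7. Chd5 had none with DESeq2, without the filter on low counts or without library 5. Without P21 library 1 the lowest Chd5 estimate was -0.249, and Chd5 was called in 4 clusters, all higher. Chd4 and Chd8 were tested in 26 clusters and called in none, with no unadjusted p under 0.05. Chd1 was tested in 1 cluster and not called, and Chd7 was too low to be tested. Only 3 inhibitory clusters could be fitted, on 3 or 4 P60 libraries where members were tested, and 0 of 14 member tests were called by edgeR, with 4 at an unadjusted p under 0.05 and 1.6% of gene tests called.

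**Figure D3:**
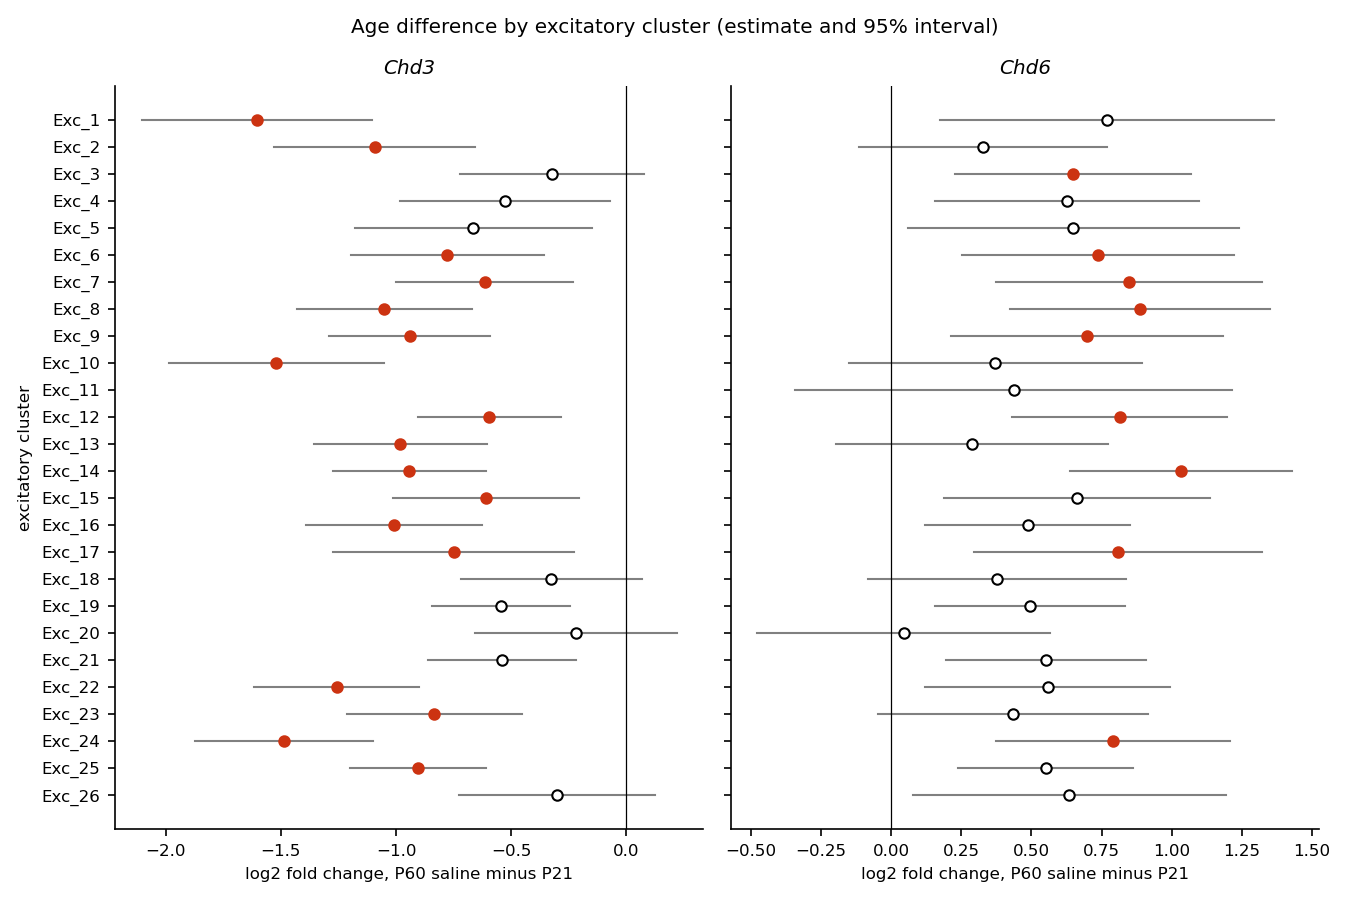
Log2 fold change between saline P60 and P21 libraries (x axis) of Chd3 and Chd6 in each excitatory cluster (y axis). Circles are edgeR estimates and lines 95% intervals, with red circles where the adjusted p is under 0.05 and the change over 1.5-fold. All 25 Chd3 estimates lie below 0 and all 26 Chd6 estimates above it. The clusters are parts of the same libraries, so their estimates are not independent.

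Other genes of the complexes were listed beside the members, and their counts stand against the 19.3% of all genes called in excitatory neurons. Of 12 NuRD genes other than the ATPases, 2 were called in excitatory neurons, Mta3 higher (0.82 ± 0.20) and Mbd3, which defines one form of the complex, lower (-0.71 ± 0.18). The list's median log2 change was -0.12 against -0.00 for all genes. Rbbp7 and Rbbp4, the histone chaperone subunits, changed by 0.38 ± 0.14 and 0.54 ± 0.09 there, and Hdac2 by -0.46 ± 0.12, all under 1.5-fold. Rbbp7 was called in mature oligodendrocytes (1.22 ± 0.23). Of the 4 ChAHP genes, partners of Chd4, Adnp was called lower in excitatory neurons (-0.63 ± 0.10, from 80.1 ± 11.3 to 49.6 ± 4.73 CPM). None was called in inhibitory neurons, where Adnp, at -0.56 ± 0.18, passed adjustment (edgeR adjusted p = 0.0410) but not 1.5-fold. In excitatory neurons Cbx5 changed by 0.33 ± 0.08, under 1.5-fold, and Cbx1 had a difference of 0.02 ± 0.07 that did not pass (edgeR adjusted p = 0.870).

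Of 10 listed genes reported to work with CHD8, 8 were found in the gene list, and 4 of these were called in excitatory neurons. Wdr5 (-0.85 ± 0.13) and Ash2l (-0.81 ± 0.12), of the histone H3K4 methyltransferase core, and Ctnnb1 (-0.63 ± 0.10), beta-catenin, were lower, and Hspa1a, a heat-shock chaperone induced by stress and dissociation, was higher (1.82 ± 0.34). Hspa1a was also called higher in inhibitory neurons, newly formed oligodendrocytes and endothelial cells, where it went from 441 ± 73.9 to 1372 ± 524 CPM. Ctnnb1 was also called lower in mature oligodendrocytes (-0.80 ± 0.24, edgeR adjusted p = 0.0230). By in situ hybridization on sections, the study reported more Hspa1a at P60 in Pou3f1-marked and Foxp2-marked neurons. Whether the Hspa1a levels move with the members' values was not tested. Of 12 listed elongation partners of Chd1, 9 were found in the gene list. Of these Rtf1, a PAF1 complex factor, was called lower in excitatory neurons (-0.96 ± 0.24) and none elsewhere. Rtf1 went from 224 ± 105 CPM (SD, n = 3) at P21 to 110 ± 19.9 CPM (n = 6) at P60, so its P21 libraries varied widely. Of 14 other remodeller genes tested in excitatory neurons, Srcap alone was called (0.61 ± 0.16). Its mean CPM went against the fitted sign, with 4.26 ± 0.18 at P21 and 3.65 ± 0.53 at P60. The gene list holds 155 repeated symbols, and for such a symbol the fit and the CPM take different entries. Whether Srcap is repeated was not tested, so no direction is read from it. Atrx and Bptf, the most abundant of the other remodeller genes, had log2 differences of 0.13 ± 0.10 and 0.13 ± 0.07 that did not pass (edgeR adjusted p = 0.283 and 0.181).

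The cocaine comparison asked whether self-administration moved the members at each period. By edgeR no member was called at any period in any type. At maintenance 0 of 39 tests were called (1 with an unadjusted p under 0.05), at 48 h 0 of 61 (0), at 15 days 0 of 61 (1) and over all 3 periods together 0 of 39 (3). Among all genes 0.0115%, 0.00826%, 0.339% and 0.00689% were called in those contrasts, types pooled. Astrocytes, precursors and newly formed oligodendrocytes had no maintenance test because a saline library held fewer than 10 of each. Differences between periods called 0 of 139 member tests (2 with an unadjusted p under 0.05) and 0.00542% of all tests. In the excitatory clusters 0 of 863 member tests were called, against 0.275% of all gene tests. At an unadjusted p under 0.05 there were 36 member tests, 14 of them for Chd5, and no share of all genes at that cutoff was computed.

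In excitatory neurons Chd3 stood at 80.5 and 76.8 CPM with cocaine and 73.4 and 64.4 CPM with saline at maintenance. It was at 74.6 and 81.9 against 63.5 and 69.1 CPM at 48 h, and at 77.2 and 84.2 against 76.9 and 84.9 CPM at 15 days. Cocaine libraries lay above saline at the first 2 periods and among them at the third. The log2 difference over the periods was 0.14 ± 0.06 (edgeR adjusted p = 0.546), with a 95% interval of 0.01 to 0.27. Chd6 gave 73.6 and 76.1 against 79.2 and 83.1 CPM at maintenance, 76.0 and 81.2 against 72.9 and 67.9 CPM at 48 h, and 76.9 and 78.7 against 80.7 and 80.2 CPM at 15 days. Its cocaine libraries lay below, above and below the saline ones in turn, and the difference over the periods was -0.00 ± 0.06 (95% interval -0.13 to 0.12). The share of all genes whose 2 cocaine and 2 saline libraries separate in a period was not computed. These orders of Chd3 and Chd6 are therefore not read as an effect of cocaine. The lowest unadjusted p belonged to Chd7 in excitatory neurons at maintenance, where 3.03 and 1.62 CPM stood against 1.34 and 0.483 CPM, on 23, 13, 6 and 4 UMIs (log2 difference 1.49 ± 0.52, edgeR adjusted p = 0.735). Over all 9 members in excitatory neurons at 15 days the widest 95% bounds of the fold were 0.632 and 1.499.

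**Figure D4:**
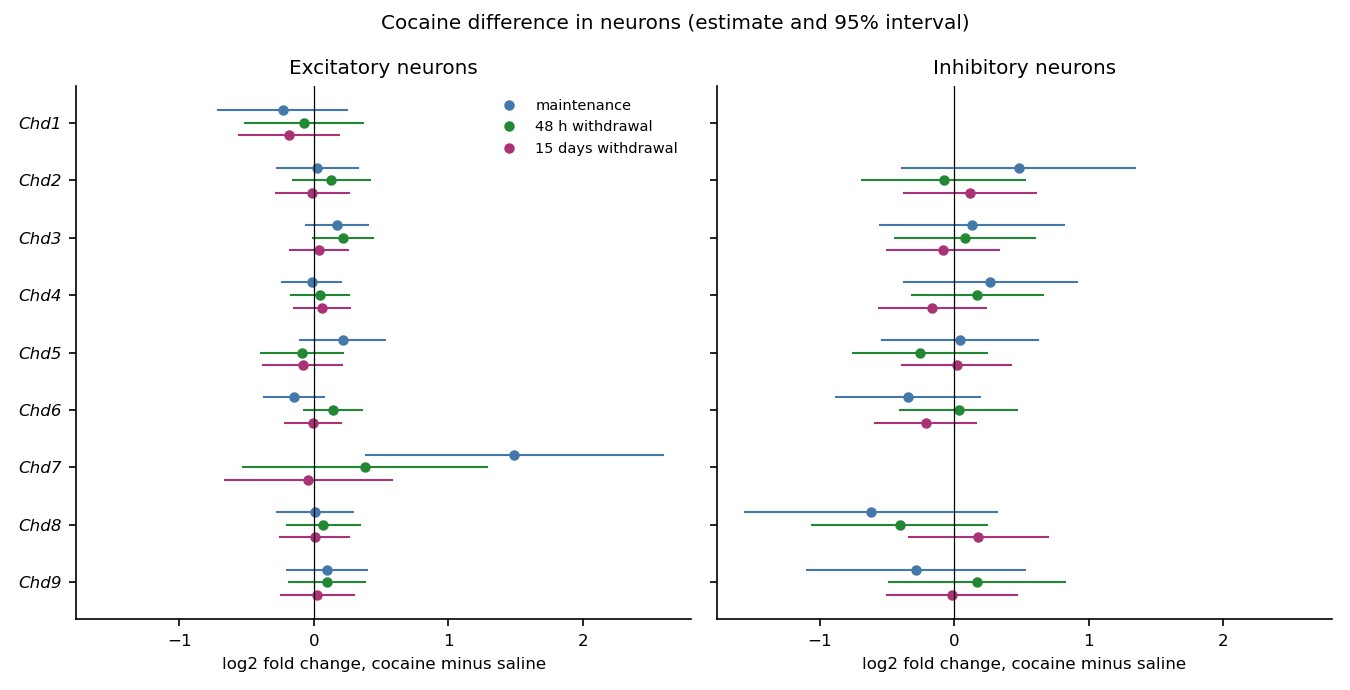
Log2 fold change between cocaine and saline libraries (x axis) of each member tested (y axis) in excitatory and inhibitory neurons at maintenance (blue), 48 h (green) and 15 days (purple) of withdrawal, 2 libraries a group. Circles are edgeR estimates and lines 95% intervals. Every interval but that of Chd7 at maintenance in excitatory neurons reaches 0, and none passed adjustment.

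In inhibitory neurons the cocaine estimates of the 7 members tested ran from -0.62 to 0.48 at maintenance, from -0.41 to 0.17 at 48 h and from -0.21 to 0.18 at 15 days. Their widest 95% bounds of the fold were 0.339 and 2.54 at maintenance, on 19 saline cells in the smallest library, and 0.665 and 1.62 at 15 days. In microglia at 15 days the log2 differences of Chd3 and Chd7 were -1.07 ± 0.72 and -1.05 ± 0.48, and neither passed (edgeR adjusted p = 1.00 for both). Of the partner lists (12, 4, 8, 9 and 14 genes tested in excitatory neurons) 1 gene was called with cocaine over all types and periods, in a contrast where 0.339% of gene tests were called. It was Rtf1 in excitatory neurons at 15 days (0.70 ± 0.14, adjusted p = 0.0360).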

How the data were processed

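The authors deposited UMI counts per gene and cell for each library as sparse matrices, made with Cell Ranger on mm9 (NCBIM37), and a table of retained cells with type and cluster, made with Seurat 2.1.0. These deposited counts are raw. Doublets and cells of low quality had been removed from that table by the authors, and no further cell filter or doublet caller was applied. The type of a cell was the prefix of its cluster name. Counts were summed per library and type (at least 10 cells), without 13 mitochondrial and 142 ribosomal protein genes (8.82% to 11.1% of UMIs). Sums were tested with edgeR 4.0.16 (filterByExpr, TMM, robust quasi-likelihood) in R 4.3.3, with Benjamini-Hochberg adjustment over all genes of a type. Cocaine fits used all 12 P60 libraries with 6 group means. Differences of age change were fitted with library as a term. Type order used log2 CPM with 0.5 UMI added. Named partners were the called genes of a list, up to 6, and up to 3 others by level, and the 3 most similar genes were taken among those at 5 CPM or more. Leading genes of clusters were added after the values were seen. DESeq2 1.42.0 and other settings served as alternatives. The fits were tested on simulated counts. Members and lists were chosen with earlier results of these data known. Libraries are separate samples in the labels, and p-values measure only the spread between them. Shares were thinned to 2000 UMIs a cell, leaving out 14 P21 excitatory cells. In bulk sums, counting error alone bounds the precision of low values.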

Additional observations from a re-analysis of the deposited data

Results flagged for a closer look

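The fall of Chd3 from P21 to P60 was greater in excitatory than in inhibitory neurons, with a difference of -0.70 on the log2 scale (edgeR adjusted p = 4.71e-05). Against newly formed oligodendrocytes, where the Chd3 estimate was 0.26 ± 0.31 and did not pass, the difference was -1.01 (edgeR adjusted p = 0.0332). The latter call was lost in 8 of 11 alternatives, without each of the 3 P21 libraries among them, with adjusted p up to 0.319. Among 72 sets of saline P60 libraries (9 members, 8 types), 3 held a library far from the others by Dixon's criterion, and chance gives about 1 set in 20. All 3 were library 2, the saline maintenance library with the fewest UMIs. Its inhibitory neurons, 19 cells, held Chd8 at 141 CPM (19 UMIs) against 41.2 to 74.5 CPM in the other 5 libraries, and Chd9 at 111 CPM (15 UMIs) against 38.8 to 58.5 CPM. Its precursors held Chd2 at 55.8 CPM on 8 UMIs, against 33.1 to 37.0 CPM.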

How the results depend on the processing

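The fall of Chd3 in excitatory neurons kept its call in 18 of 18 alternatives (log2 -0.92 to -0.80), as did the rise of Chd6 in inhibitory neurons (0.75 to 0.93), and the difference of the Chd3 change between excitatory and inhibitory neurons in 11 of 11 (-0.78 to -0.65). Chd6 in excitatory neurons went from 0.56 to 0.70 and lost the call in 4 of 18 by size alone, with the largest adjusted p at 0.00316. The 5 calls of members by type became 9 with no fold cutoff and 2 with P21 libraries 2 and 3 summed (Chd3 in excitatory and Chd6 in inhibitory neurons), and ran from 2 (without P21 library 3) to 6 over the 9 left-out libraries, with 3 each without library 2 and without P21 library 2. Calls gained were Chd2 in inhibitory neurons in 7 of 18 alternatives and Chd6 in mature oligodendrocytes in 2 of 18. With the class column in place of the cluster they were 9, without both Chd7 calls and with 6 others. In microglia (329 P21 cells in place of 182) Chd3 was lower (-1.51) and Chd4 (0.67) and Chd7 (0.78) higher, where 42.4% of all genes were called against 0.726% by cluster. In precursors (51 P21 cells) Chd3 was lower (-2.09) and Chd6 (1.45) and Chd7 (1.25) higher, where 20.6% were called. The cause was not tested. The 29 calls over excitatory clusters fell to 19 with DESeq2 and 16 with at least 30 cells, where fewer libraries entered, and ran from 21 to 29 over left-out libraries. Inhibitory clusters gave 0 to 2 calls (2 without P21 library 1, 1 without library 12) and the 2 differences of age change 1 to 2, settings chosen after seeing the data. The difference of Chd3 against newly formed oligodendrocytes was lost without any 1 of libraries 2, 5, 7, 11, 12 or the 3 P21 libraries. Cocaine gave 0 calls in every alternative run, and 128 to 163 of 252 type pairs differed. No paired analysis was possible because titles number the libraries in series within each age, so that cocaine and saline groups share no number, and a number shared by a P21 and a P60 library marks different animals. Cell types were compared within libraries. Low counts limit Chd7 and Chd1 in neurons, Chd5 in glia, and inhibitory cells at maintenance.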
